A study of Mus musculus with 16 samples.

Results

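Constant MyoD regions without H3K27ac were stretches of the mouse genome that held a MyoD peak in every MyoD library of the series and no H3K27ac peak in any H3K27ac library. They were chosen by merging the peaks of the 4 MyoD lists (gap 0 bp, chromosomes 1 to 19 and X), keeping regions with a peak of all 4 lists, and removing those that shared a base with a peak of any of the 4 H3K27ac lists. Regions also had to lie more than 1 kb from any end of a protein-coding gene and within 50 kb of, or inside, such a gene. Of 24264 MyoD regions, 9909 were constant, 7139 of these lay in the required gene positions, and 767 (10.7%) had no H3K27ac peak. The other 6372 constant regions in the same positions overlapped H3K27ac in at least 1 library and are called acetylated regions below. Presence of MyoD and absence of H3K27ac were thus fixed by the choice of regions and are described without a test.

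The cells were satellite cells, the resident stem cells of skeletal muscle, taken from the hindlimb of C57BL/6 mice and grown in culture. Chromatin immunoprecipitation with antibodies to MyoD and to H3K27ac was done on LncMyoD knockdown cells and on control cells. Each antibody had 2 libraries in each group (knockdown 1 and 2, control 1 and 2). The target of the 48 h small interfering RNA treatment was the long noncoding RNA LncMyoD. The treatment text gives this LncMyoD treatment for every library, controls included, so it does not separate the groups. The names knockdown and control were therefore taken from titles and genotype labels, and every comparison between the groups rests on those labels. Whether each replicate was its own culture or animal is not stated, so p-values measure only the spread between these libraries, which may be technical. RNA was not measured, so the level of LncMyoD itself was not checked.

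MyoD is a basic helix-loop-helix transcription factor that pairs with E proteins and binds short DNA sites called E-boxes, and it can start the muscle programme in cells of other origins. It is known to occupy many more sites in muscle cells than the number of genes that answer to it. Acetylation of histone H3 at lysine 27 (H3K27ac) marks active promoters and enhancers, so a site with MyoD but without this mark is bound chromatin where that mark was not called.

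The labelled cell type was checked at the satellite cell genes Pax7 and Myf5, at Myod1 and at Cdh15 (M-cadherin), whose ends carried H3K27ac in 4 of 4 lists. The same held for 43.4% of all protein-coding genes. Constant MyoD regions without H3K27ac numbered 0 of 3 at Pax7, 0 of 5 at Myod1 and 0 of 4 at Cdh15, and Myf5 had 0 constant regions. Over all genes 10.7% of constant regions lacked H3K27ac, so 0 of so few regions says little. Of genes that mark other cell types, 13 of 16 endothelial, 11 of 16 immune, 11 of 16 fibro-adipogenic, 14 of 18 Schwann and neural and 5 of 14 smooth muscle and pericyte markers had no H3K27ac within 1 kb of an end in any list. Over all protein-coding genes this share was 48.4%. Smooth muscle and pericyte markers lay below it and the other marker lists above it. On the chromosomes used there were 16440 and 13069 MyoD peaks in the knockdown libraries and 17724 and 17558 in the controls. H3K27ac peaks numbered 54008 and 39934 in the knockdown libraries and 46207 and 52998 in the controls. Both lists of knockdown 2 were thus the shortest of their antibody. Read counts are not part of a peak list, so the depth behind each list is unknown.

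The sequence under these regions could be read where an annotated transcription start lay in them. The 250 bases before a RefSeq start (GRCm38.p6, the assembly that mm10 represents) shared bases with a constant MyoD region without H3K27ac in 8 cases, at inner starts of protein-coding genes or at long noncoding RNA genes. In 6 of them the bases shared with the MyoD region hold an E-box core that MyoD favours, and these shared bases are printed. Capitals mark CAGCTG, a palindrome, and CAGGTG or its other strand CACCTG; each sequence reads 5′ to 3′ on the strand of its gene.
Col6a5, chr9:105960644-105960893, minus strand: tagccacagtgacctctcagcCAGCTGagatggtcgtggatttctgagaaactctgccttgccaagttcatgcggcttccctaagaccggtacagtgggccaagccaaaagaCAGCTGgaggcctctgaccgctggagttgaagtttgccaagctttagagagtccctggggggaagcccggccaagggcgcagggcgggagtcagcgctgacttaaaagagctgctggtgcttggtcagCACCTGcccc
Rab17, chr1:90967668-90967917, minus strand: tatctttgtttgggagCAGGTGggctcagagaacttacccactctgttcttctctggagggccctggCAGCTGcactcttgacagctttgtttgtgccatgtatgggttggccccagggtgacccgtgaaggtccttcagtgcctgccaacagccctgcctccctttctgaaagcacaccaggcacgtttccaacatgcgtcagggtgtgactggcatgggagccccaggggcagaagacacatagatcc
Lrtm2, chr6:119329205-119329454, minus strand: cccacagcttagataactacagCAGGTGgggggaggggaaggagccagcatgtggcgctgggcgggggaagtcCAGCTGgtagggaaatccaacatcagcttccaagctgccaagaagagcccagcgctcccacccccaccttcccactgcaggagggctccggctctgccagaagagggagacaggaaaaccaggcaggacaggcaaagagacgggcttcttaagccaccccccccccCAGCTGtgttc
Gm11753, chr11:119190547-119190796, minus strand: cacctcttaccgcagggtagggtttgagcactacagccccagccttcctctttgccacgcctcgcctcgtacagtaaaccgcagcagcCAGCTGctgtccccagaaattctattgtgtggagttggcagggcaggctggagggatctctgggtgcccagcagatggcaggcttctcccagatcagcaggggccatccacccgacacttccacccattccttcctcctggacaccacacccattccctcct
Nfatc2, chr2:168590366-168590581, minus strand: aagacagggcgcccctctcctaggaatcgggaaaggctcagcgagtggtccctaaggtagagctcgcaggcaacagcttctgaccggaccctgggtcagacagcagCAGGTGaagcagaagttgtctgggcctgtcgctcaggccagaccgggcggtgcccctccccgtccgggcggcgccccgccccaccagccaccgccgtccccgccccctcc
Gm41589, chr17:47139700-47139929, minus strand: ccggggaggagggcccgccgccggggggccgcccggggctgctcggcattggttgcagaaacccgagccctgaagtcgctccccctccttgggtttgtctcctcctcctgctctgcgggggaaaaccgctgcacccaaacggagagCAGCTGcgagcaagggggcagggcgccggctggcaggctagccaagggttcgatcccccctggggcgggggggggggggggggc

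Col6a5, which encodes a collagen VI chain, had 2 CAGCTG sites and 1 CAGGTG site in its 250 bases, and the mean position of the 4 MyoD summits fell inside them. Rab17, a small GTPase gene, had 1 of each, and Lrtm2, which encodes a leucine-rich repeat membrane protein, had 2 and 1, although its mean summit fell outside the window. Gm11753 is a long noncoding RNA gene inside Tbc1d16, a gene of a Rab GTPase-activating protein, and its window held 1 CAGCTG. The window of an inner start of Nfatc2, a calcineurin-dependent transcription factor gene, held 1 CAGGTG. Gm41589, a long noncoding RNA gene whose region was assigned to Trerf1, a transcriptional regulator gene, had 1 CAGCTG. The assigned genes had no H3K27ac at their ends in any list, except Trerf1, whose ends carried it in 3 lists. The nearest H3K27ac peak was 72.5 kb away from the Col6a5 region, 46.9 kb from Lrtm2, 17.2 kb from Gm11753, 13.6 kb from Nfatc2, 5.378 kb from Rab17 and 0.054 kb from Gm41589.

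The MyoD fold enrichment at the Col6a5 start was 9.95 and 6.66 in the knockdown libraries and 6.94 and 8.61 in the controls. For the region that shared bases with the Lrtm2 window, with its mean summit outside that window, it was 9.95 and 7.45 in the knockdown libraries. In the controls it was 8.92 and 8.61. The lower-ranked Nfatc2 start had 5.16 and 6.27 in the knockdown libraries and 5.06 and 5.96 in the controls. In each of these 3 regions the values of the groups overlapped.

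Counting each of the 8 windows over its full 250 bases and both strands, CAGCTG was present in 5, CAGGTG in 4 and any E-box (CANNTG, which includes both) in 7. Among the 920 windows that shared bases with any constant MyoD region the shares were 39.1%, 24.7% and 76.8%, and among all 32620 windows they were 13.1%, 17.3% and 66.2%. With 8 windows these shares are a description only, and a match is not a binding site shown by these data.

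Occupancy was compared between regions by rank, since a fold enrichment belongs to the list it was called in. The rank of a region was the percentile of its highest peak's fold among the 9909 constant regions of the same library (0 lowest, 100 highest). Regions without H3K27ac lay in the lower part of this range. Their median rank was 30.1 in knockdown 1, 35.4 in knockdown 2, 30.3 in control 1 and 33.7 in control 2. Acetylated regions had median ranks of 54.3 and 51.5 in the knockdown libraries and 53.8 and 54.2 in the controls. In each of the 4 libraries the regions without H3K27ac were the lower set, by 24.2 and 16.2 rank points in knockdown 1 and 2 and by 23.6 and 20.4 in control 1 and 2, and the smallest gap was in knockdown 2.

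On the fold scale the medians without H3K27ac were 6.999 and 6.66 in the knockdown libraries and 7.08 and 7.29 in the controls. Acetylated regions had 9.21 and 7.84 in the knockdown libraries and 9.22 and 8.94 in the controls. The ratio of these medians, without over with H3K27ac, was 0.760 and 0.850 in the knockdown libraries and 0.767 and 0.815 in the controls. The quartiles of the 2 sets overlapped in every library, as the plot of ranks by library shows.

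**Figure D1:**
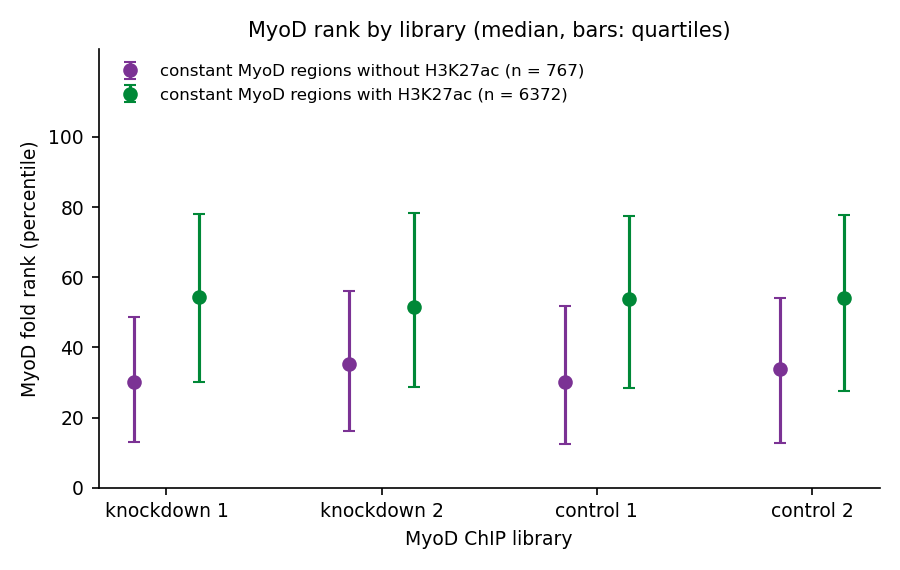
MyoD fold rank (percentile among 9909 constant regions) in each MyoD library for constant regions without H3K27ac (purple, n = 767) and acetylated regions in the same gene positions (green, n = 6372); points are medians over regions and bars span the quartiles. The purple medians lie between 30.1 and 35.4 and the green ones between 51.5 and 54.3, with overlapping bars.

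A mean rank over the 4 libraries of at least 50 was reached by 173 of the 767 regions (22.6%), against 3224 acetylated regions (50.6%). One of at least 80 was reached by 40 (5.22%), against 1254 acetylated regions (19.7%). A mean rank below 20 was found in 189 (24.6%), against 749 acetylated regions (11.8%). Read from the side of MyoD, 20.3% of the constant regions in the lowest quintile of mean rank lacked H3K27ac, then 14.6%, 10.1% and 5.25% in the next quintiles, and 3.50% in the highest.

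By mean rank, regions with H3K27ac in some libraries only lay between the extremes. The median of the mean rank was 31.2 in the 767 regions with no H3K27ac list, 34.5 in 291 regions with 1 list, 34.1 in 269 with 2, 38.8 in 509 with 3 and 53.9 in 5303 with all 4. Taken by library, the median ranks with 0, 1 and 2 lists were equal in knockdown 2 (35.4) and in control 2 (33.7). Single H3K27ac lists decided part of the membership. Knockdown 1 alone covered 178 of the regions with 1 list, knockdown 2 covered 2, control 1 covered 37 and control 2 covered 74, so a region counted here as without H3K27ac depends most on the list of knockdown 1.

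Across all MyoD regions in these positions, not only the constant ones, H3K27ac was missing in 53.0% of 4727 regions with a MyoD peak in 1 list, 33.1% of 2520 with 2 lists, 25.1% of 2431 with 3 and 10.7% of 7139 with 4. Of 123 regions with MyoD in both knockdown lists only, 49 lacked H3K27ac (39.8%), and of 767 regions with MyoD in both control lists only, 273 lacked it (35.6%).

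The strongest MyoD region without H3K27ac lay 21.1 kb from Mprip (chromosome 11, 59640100 to 59641411), which encodes a protein that links myosin phosphatase to RhoA and actin. Its fold enrichment was 21.0 and 31.7 in the knockdown libraries and 25.4 and 25.5 in the controls, so the knockdown values lay on both sides of the controls. The nearest H3K27ac peak was 0.464 kb away, and the ends of Mprip carried H3K27ac in 4 lists. Klhl25, which encodes a substrate adaptor of a cullin ubiquitin ligase, was next, with a region 39.7 kb from the gene and 33.2 kb from H3K27ac. That region had 26.2 and 19.99 in the knockdown libraries and 24.1 and 22.9 in the controls, again overlapping.

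Among muscle genes, Lmod3 had the strongest such region. Leiomodin 3 nucleates the thin filaments of the sarcomere. The region (chromosome 6, 97259782 to 97260403) lay 6.565 kb from the gene and 5.981 kb from the nearest H3K27ac peak, while the gene ends were acetylated in 4 lists. Its fold was 19.2 and 16.9 in the knockdown libraries and 18.8 and 21.9 in the controls. On the rank scale the knockdown values were 94.6 and 94.3, just below the control values of 94.7 and 97.1. Nos1, the neuronal nitric oxide synthase found at the muscle membrane, had a region inside the gene with 13.3 and 13.3 in the knockdown libraries and 15.5 and 16.2 in the controls, and both knockdown values were the lower ones. No list showed H3K27ac at the ends of Nos1.

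Kcnq1, a voltage-gated potassium channel gene, held 4 of the regions and the ends of the gene lacked H3K27ac in all lists. The strongest of them (chromosome 7, 143338531 to 143339159), 41.4 kb from the nearest H3K27ac peak, had 20.6 and 19.6 in the knockdown libraries and 19.2 and 19.2 in the controls. Its spread over the 4 libraries was small and the knockdown ranks of 95.99 and 96.8 were above the control ranks of 94.98 and 95.3. The other 3 regions in Kcnq1 had mean ranks of 39.7, 22.5 and 17.5.

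Other strong regions lay at genes with no acetylated end. Ntng2, which encodes the membrane-anchored netrin-G2, had an inner region with 16.8 and 18.4 in the knockdown libraries and 22.5 and 18.2 in the controls. A region 31.2 kb from Tcf15, the bHLH factor paraxis of the somite, had 16.2 and 13.7 in the knockdown libraries and 13.2 and 16.2 in the controls. Near Irf5, an interferon regulatory factor gene, the values were 26.5 and 26.6 in the knockdown libraries and 25.4 and 12.8 in the controls, with control 2 far below the rest. The groups overlapped at Ntng2 and Tcf15. At Irf5 both knockdown folds were above the controls, but the rank of knockdown 1 (98.58) was just below that of control 1 (98.60).

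A region 3.447 kb from Cd7, which encodes a lymphocyte surface protein, also had a single low library. Its fold was 28.2 in knockdown 1 and 7.70 in knockdown 2, against 29.8 in control 1 and 31.6 in control 2. Both knockdown values were below the controls, that of knockdown 1 by little. On the rank scale knockdown 2 had 49.2, and the other libraries had 98.9 to 99.7. An H3K27ac peak lay 0.055 kb from it.

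Hsdl2, a hydroxysteroid dehydrogenase-like gene, had an inner region with 18.1 and 12.9 in the knockdown libraries and 18.2 and 22.2 in the controls, so the knockdown values were the lower ones. A region 18.4 kb from Spty2d1, which encodes a histone chaperone, had 16.9 and 14.5 in the knockdown libraries and 13.9 and 13.9 in the controls, and here they were the higher ones. Near Bdkrb2, the bradykinin receptor B2 gene, the values were 14.4 and 15.6 in the knockdown libraries and 15.9 and 13.03 in the controls and overlapped, with an H3K27ac peak 6 bp away. The remaining regions of the 20 with the highest mean rank were assigned to Glrx5, Cryl1, Bmerb1, Cdh20, Hook2, Gbp10, Rimbp3 and Cand1, with mean ranks of 86.1 to 95.1.

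**Figure D2:**
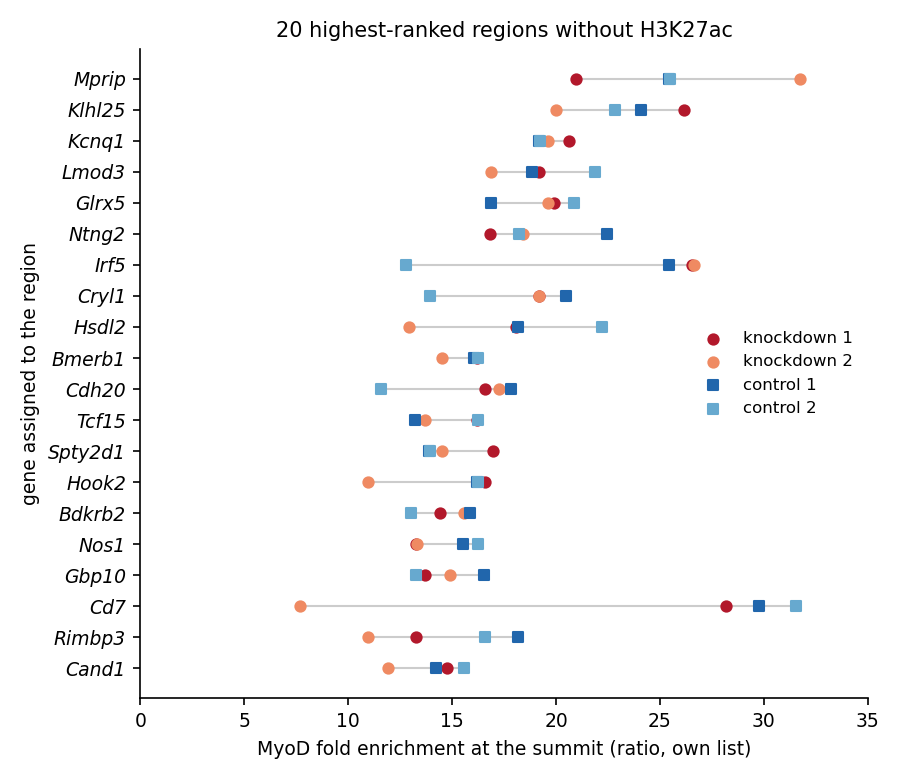
MyoD fold enrichment (ratio at the summit, from each library's own list) of the 20 constant regions without H3K27ac with the highest mean rank, named by assigned gene; circles are knockdown and squares control libraries, and grey lines join the lowest and highest value. Libraries of both groups interleave in most rows, and knockdown 2 stands far below the others at Cd7 and control 2 at Irf5.

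At the other end of the set, the weakest region lay inside Filip1l, which encodes a filamin A-interacting protein relative, with 1.77 and 1.97 in the knockdown libraries and 1.76 and 2.01 in the controls. For the thresholds of the rule, the members nearest to the gene-end limit lay 1.013 kb from an end of Trerf1 and 1.088 kb from one of Rin3. Regions that missed it lay 0.958 kb from an end of Apobec3 and 0.988 kb from one of Rundc3a. Near the 50 kb limit, regions 49.7 kb from Mtx2 and 49.8 kb from Zmat4 were inside it, and regions 50.4 kb from Thap1 and 51.0 kb from Ppp1r3b outside. A region in Wdfy2 lay 1 bp from an H3K27ac peak and one in Tnfsf10 2 bp, whereas a region in Dnah2 shared 1 bp with a peak and one in Cacna2d3 shared 2 bp.

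Between knockdown and control cells, the rank and the fold gave opposite signs for MyoD at these regions. All the regions had a peak in both knockdown lists by the rule, so a loss of peaks could not appear among them. The 4 median ranks given above average 32.7 ± 3.69 in the knockdown libraries and 32.0 ± 2.45 in the controls (SD, n = 2 each). The difference of 0.744 rank points, knockdown minus control, was smaller than the spread between libraries of a group (two-sided exact permutation test over 6 assignments, p = 1). On the fold scale the medians averaged 6.83 ± 0.239 in the knockdown libraries and 7.18 ± 0.148 in the controls, a difference of −0.35 (exact permutation p = 0.333), with both knockdown medians below both control medians. That p is the smallest 2 against 2 libraries can give, so this test could not reach 0.05 and does not show that the groups were alike. The fold difference was of the same sign in acetylated regions, at −0.56 (exact permutation p = 0.667). Without knockdown 2 the rank difference was −1.96, and with ranks among all peaks of each list it was −7.81 (exact permutation p = 0.333), both the reverse direction. For the second, the lists differ in length and the difference over all constant regions was not computed.

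Region by region, 114 of the 767 (14.9%) had both knockdown ranks below both control ranks, against 15.9% of all constant regions. The reverse, both knockdown ranks above both control ranks, held for 127 (16.6%), against 16.4% of all constant regions. Both shares were near the background. With ranks among all peaks of each list, which differ in length, the counts were 192 below and 73 above. These counts were not made for all constant regions under that ranking, so they have no background share beside them. The middle 90% of rank differences, knockdown minus control, ran from −26.3 to 24.9 points in these regions and from −23.5 to 24.04 points in acetylated regions.

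**Figure D3:**
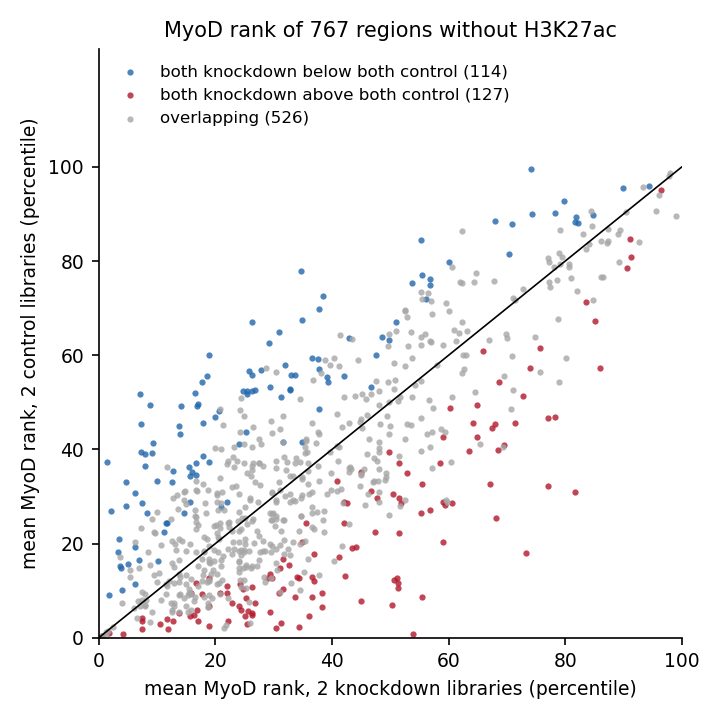
Mean MyoD rank in the 2 knockdown libraries (horizontal, percentile) against the mean in the 2 control libraries (vertical, percentile) for the 767 constant regions without H3K27ac; the line marks equal ranks. Regions with both knockdown ranks below both control ranks are blue (114), the reverse are red (127), and all others grey; points scatter on both sides of the line.

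The regions with the widest separation are named as examples, chosen for that difference and given without a test. Lower in the knockdown was a region inside Galnt2, a gene of mucin-type glycosylation, with fold values of 5.53 and 3.92 in the knockdown libraries and 7.27 and 10.9 in the controls. An H3K27ac peak lay 0.185 kb from that region, and the ends of Galnt2 carried H3K27ac in 4 lists. Regions near Mrps23, a mitochondrial ribosome gene, and inside Tecr, a fatty acid elongation gene, had rank differences of −43.3 and −41.2 points. Pde2a, a cyclic nucleotide phosphodiesterase gene, and Ccdc162 had −40.6 points each.

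Higher in the knockdown was a region inside Sppl3, an intramembrane protease gene, with 12.2 and 9.80 in the knockdown libraries and 7.14 and 4.91 in the controls. It lay 0.063 kb from an H3K27ac peak, and the ends of Sppl3 carried H3K27ac in 4 lists. In Rims1, a presynaptic scaffold gene, the region at chromosome 1, 22594735 to 22595242 had 12.5 and 12.5 in the knockdown libraries and 7.27 and 6.95 in the controls. The second region of Rims1 had 8.10 and 8.62 in the knockdown libraries and 8.59 and 8.94 in the controls, so the groups stood apart in the one region and overlapped in the other. The nearest H3K27ac peak was 45.1 kb from the first Rims1 region and 0.03 kb from the second. Thsd4, Lgr6 (an R-spondin receptor gene) and Epb41l4a had rank differences of 53.1, 46.8 and 44.7 points.

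Ranks were less alike between libraries in these regions than in acetylated ones. Between pairs of libraries, Pearson's r was taken on the ranks among the 9909 constant regions, without ranking again within a set. Across the 767 regions r was 0.572 between the knockdown libraries, 0.657 between the controls and 0.570 to 0.651 between groups. Across acetylated regions it was 0.708 between the knockdown libraries, 0.778 between the controls and 0.735 to 0.770 between groups. These are correlations across regions that share libraries, and regions are not replicates. The 767 regions also spanned a narrower range of ranks, which can lower r. In knockdown 1 their quartiles were 12.9 and 48.8, against 30.1 and 78.1 in acetylated regions. How much of the difference in r comes from this was not tested. Within one region, the highest and lowest of the 4 ranks differed by a median of 29.95 points, against 26.2 points in acetylated regions.

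As to where they lay, 470 of the 767 regions (61.3%) were inside a protein-coding gene, against 4385 of 6372 acetylated regions (68.8%). The 297 regions outside had a median distance of 14.0 kb to the gene. Regions were 443 bp wide at the median and acetylated ones 517 bp. The 4 summits of a region fell within a median span of 84 bp, against 79 bp in acetylated regions, and 764 of the 767 had exactly 1 peak in each list. A long noncoding RNA gene ended within 1 kb of 28 regions (3.65%), against 335 acetylated regions (5.26%). By chromosome, the share of constant regions in these positions that lacked H3K27ac was lowest on chromosome 18 (7.73%) and highest on chromosome 2 (13.1%).

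Most of the regions lay several kilobases from any H3K27ac peak. The nearest H3K27ac peak of any library lay at a median of 13.3 kb (quartiles 4.27 and 35.1 kb). It was within 1 kb of 92 regions, at 1 to 10 kb from 236, at 10 to 50 kb from 322 and over 50 kb from 117. Only 50 regions had a peak within 100 bp, and 11 had H3K27ac within 1 kb on both sides.

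The farthest region, 565 kb from any H3K27ac peak, lay 21.0 kb from Cdh20, a cadherin gene, and was also one of the 20 strongest. Its fold was 16.6 and 17.2 in the knockdown libraries and 17.8 and 11.6 in the controls. A second region near Cdh20 (558 kb from H3K27ac) had 15.5 and 10.6 in the knockdown libraries and 10.9 and 12.3 in the controls. Cdh20 had 0 acetylated constant MyoD regions. Altogether 13 regions lay over 200 kb from H3K27ac, among them those of Cntn1 (contactin 1, 357 kb), Dab1 (a reelin pathway adaptor, 342 kb) and Kdr (the VEGF receptor gene, 218 kb).

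An end with H3K27ac in at least 1 list was about as frequent for the assigned genes as for protein-coding genes in general. It was more frequent for the genes of acetylated regions. H3K27ac at an end in all 4 lists was less frequent for the assigned genes than for either. This was read from the same H3K27ac lists that chose the regions and is a description. For 380 of 767 regions (49.5%, 95% exact binomial interval 45.9 to 53.1) no H3K27ac peak of any list lay within 1 kb of either end of the assigned gene. The share was 48.4% over the 21631 protein-coding genes, which lies in that interval, and 26.9% (25.8 to 28.0) for acetylated regions. The 48.4% counts each gene once, whereas the shares of regions count a gene once for each of its regions. H3K27ac at the gene ends in all 4 lists was found for 37.3% of the regions (33.9 to 40.8), against 62.5% of acetylated regions. Over all protein-coding genes it was 43.4%, which lies above that interval. The intervals cover counting error over regions only.

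The difference from acetylated regions was seen in every quintile of MyoD rank. From the lowest to the highest quintile, the share of regions without H3K27ac whose gene ends lacked the mark was 42.8%, 53.4%, 52.1%, 50.7% and 64.0%, against 29.4%, 27.3%, 27.8%, 25.7% and 24.6% of acetylated regions. The highest quintile held 50 regions without H3K27ac. By the number of H3K27ac lists over the region the share was 49.5% with 0 lists, 46.4% with 1, 41.6% with 2, 36.1% with 3 and 24.2% with 4. By distance to H3K27ac it was 38.0% up to 1 kb, 37.7% at 1 to 10 kb, 51.2% at 10 to 50 kb and 77.8% beyond 50 kb. Since a gene end can itself be the nearest peak, these distances and shares are not independent.

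**Figure D4:**
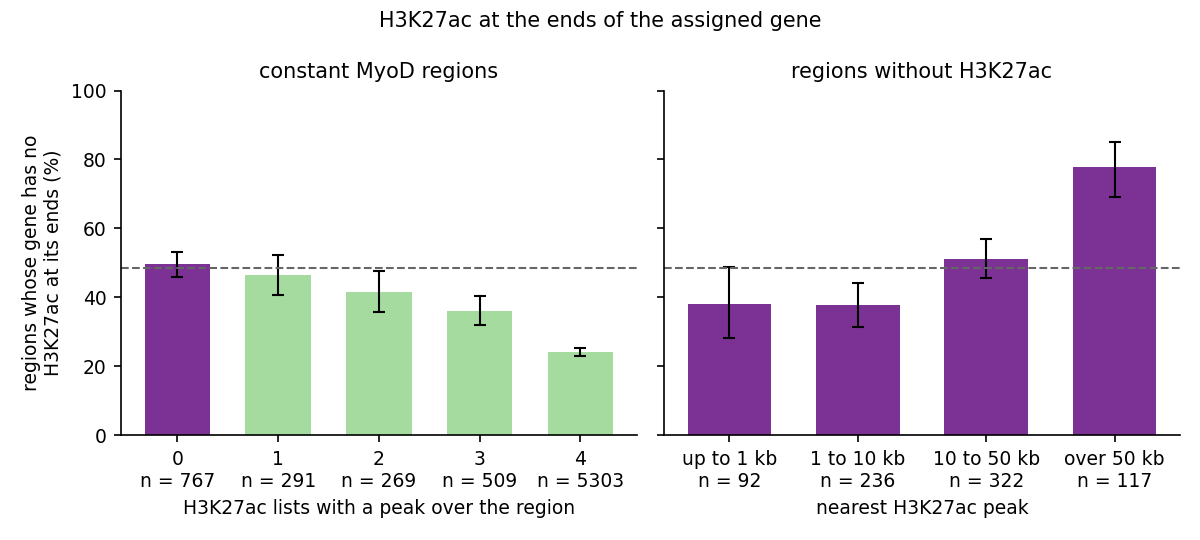
Share of regions (%) whose assigned gene had no H3K27ac peak of any list within 1 kb of an end: left, constant MyoD regions by the number of H3K27ac lists over the region; right, the 767 regions without H3K27ac by distance to the nearest H3K27ac peak. Bars carry 95% exact binomial intervals and the dashed line is the share of all protein-coding genes (48.4%); the left bars decline from 49.5% to 24.2% and the right bars reach 77.8%.

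Taken per library, the 704 assigned genes had H3K27ac at an end in 49.6% and 39.9% of cases in the knockdown libraries and in 47.6% and 45.5% in the controls. The knockdown values lay on both sides of the controls. Their means were 44.7 ± 6.83% in the knockdown libraries and 46.5 ± 1.51% in the controls (SD, n = 2 each), a difference of −1.78 percentage points (exact permutation p = 1). Over all protein-coding genes the shares were 50.7% and 43.9% in the knockdown libraries and 48.8% and 48.0% in the controls, a difference of −1.11 points. The 704 genes lay below all protein-coding genes in every library. For the genes of acetylated regions they were 69.0% and 60.6% in the knockdown libraries and 65.9% and 65.1% in the controls.

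Of the 704 genes, 649 had 1 region, 50 had 2, 2 had 3 and 3 had 4. Kcnq1, Dmbt1 and Hivep3 had 4. In Dmbt1, which encodes a secreted scavenger receptor protein, the 4 regions lay between 131040649 and 131074550 on chromosome 7, with mean ranks of 84.3, 85.1, 83.8 and 80.1. The first of them had fold values of 11.1 and 12.6 in the knockdown libraries and 14.9 and 17.6 in the controls, and the second 16.2 and 11.8 in the knockdown libraries and 12.2 and 16.2 in the controls. Both knockdown values were lower in the first, and the groups overlapped in the second. All 4 had mean ranks above 80 and lay 72.02 to 105 kb from H3K27ac. No acetylated constant MyoD region was assigned to Dmbt1, and its ends lacked H3K27ac. Dmbt1 is known to hold tandem copies of one domain, and how reads that match several copies were treated is not stated, so its similar values are uncertain.

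Hivep3, a zinc finger factor gene, also had 5 acetylated regions beside its 4 without H3K27ac, whose mean ranks ran from 15.2 to 48.8. Agap1 and Gse1 had 3 each, together with 8 and 20 acetylated regions. Fhl2, which encodes a LIM protein of muscle, had 2 regions without H3K27ac and 2 with it, and no acetylated gene end. In all, 341 of the 767 regions (44.5%) were assigned to a gene that also had an acetylated constant MyoD region.

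Counts at muscle gene lists were small. Against 767 of 7139 constant regions (10.7%) over all genes, 2 of 51 at myogenic regulators, 1 of 62 at satellite cell and Notch genes and 3 of 76 at dystrophin complex and costamere genes lacked H3K27ac. These shares were 3.92%, 1.61% and 3.95%. With a −log10 q of at least 5 in all lists they were 9.52%, 6.00% and 8.06%, the myogenic regulators had 9.09% without MyoD knockdown 2, and the satellite cell and Notch genes had 5.97% without MyoD knockdown 1 and 4.84% without the H3K27ac list of knockdown 1. The absence of H3K27ac chose the regions, so the shares carry no test. Both regions of the myogenic regulators were at Eya2, a transcriptional cofactor gene of muscle development whose ends had no H3K27ac. The stronger one had 8.17 and 7.37 in the knockdown libraries and 13.9 and 7.29 in the controls. For the other, the values were 8.47 and 8.23 in the knockdown libraries and 5.52 and 7.29 in the controls. Groups overlapped in the stronger region, and in the other both knockdown values were higher. The satellite cell and Notch list had a single weak region near Heyl, a Notch target, with 3.11 and 4.70 in the knockdown libraries and 5.95 and 6.29 in the controls. Both knockdown values were the lower ones.

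Sarcomere genes had 5 of 51 (9.80%, or 4.44% with a −log10 q of at least 5): besides Lmod3, these were Myh2, Myom3, Myh3 and Myl1. The Myh2 region, 26.0 kb from this fast myosin heavy chain gene, had 13.6 and 8.23 in the knockdown libraries and 10.6 and 5.70 in the controls. The embryonic myosin gene Myh3 had an inner region 0.560 kb from H3K27ac with 6.999 and 3.92 in the knockdown libraries and 7.60 and 7.29 in the controls. Groups overlapped at Myh2, and both knockdown values were the lower ones at Myh3. Myom3 (a myomesin of the M-band) and Myl1 (a fast myosin light chain) had mean ranks of 30.2 and 18.02.

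Calcium handling and excitation genes had 2 of 41 (4.88%, or 7.55% without MyoD knockdown 2), at the potassium channel genes Kcnj2 and Kcnn3. The Kcnj2 region, 6.314 kb from this inward rectifier gene and 164 kb from H3K27ac, had 12.5 and 9.01 in the knockdown libraries and 11.6 and 10.9 in the controls, which lay between them. Neuromuscular junction and fusion genes had 3 of 36, at Dysf (dysferlin, for membrane repair), Boc (a cell-surface receptor that promotes myogenic differentiation) and Ache (acetylcholinesterase). The dysferlin region was the strongest of them, with 9.58 and 6.94 in the knockdown libraries and 7.60 and 8.28 in the controls. Dystrophin complex and costamere genes had 2 regions at Ank3 (ankyrin G) and 1 at Svil (supervillin).

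Extracellular matrix and TGF-beta genes had 5 of 62: 2 at Col15a1 and 1 each at Lamb1, Tgfbr1 and Tnc. The stronger Col15a1 region had 8.84 and 8.62 in the knockdown libraries and 14.2 and 10.6 in the controls, while the Tgfbr1 region had 8.84 and 7.84 in the knockdown libraries and 5.65 and 5.62 in the controls. Knockdown values were thus both lower at Col15a1 and both higher at Tgfbr1, the TGF-beta receptor gene. Growth factor signalling genes had 1 of 26, at Akt2. Of AP-1 and early response genes 0 of 10, of cell cycle genes 0 of 16 and of housekeeping genes 0 of 10 constant regions lacked H3K27ac, and exact intervals for these reach 30.8%, 20.6% and 30.8%.

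Synaptic and neuronal adhesion genes had a share above that of all genes. Of their 56 constant regions 11 lacked H3K27ac (19.6%, exact interval 10.2 to 32.4), an interval that includes the 10.7% of all genes. They lay at Rims1 and Auts2 (2 each), Magi2, Nrxn2, Cntn1, Sorcs1, Grin2a, Ctnnd2 and Dlgap2. Of the 62 genes of this list 60 had no acetylated end. The strongest region was inside Magi2, a synaptic scaffold gene, with 11.1 and 9.40 in the knockdown libraries and 9.58 and 8.61 in the controls, and a mean rank of 61.5. Axon guidance genes had 3 of 40, with 2 at the ephrin receptor gene Ephb2 and 1 at Nrp1.

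Among markers of other cell types, 4 of 12 constant regions at endothelial genes (Erg, Egfl7, Kdr and Flt1) and 2 of 5 at fibro-adipogenic genes (both Col15a1, which is also in the matrix list) lacked H3K27ac. Counts were 1 of 4 for immune genes (Tyrobp), 1 of 11 for Schwann and neural genes (Ngfr) and 0 of 8 for smooth muscle and pericyte genes. The Erg region, at a gene of endothelial identity, had 7.74 and 7.45 in the knockdown libraries and 7.14 and 6.66 in the controls, the knockdown values being the higher ones. All 4 endothelial genes had ends without H3K27ac.

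**Figure D5:**
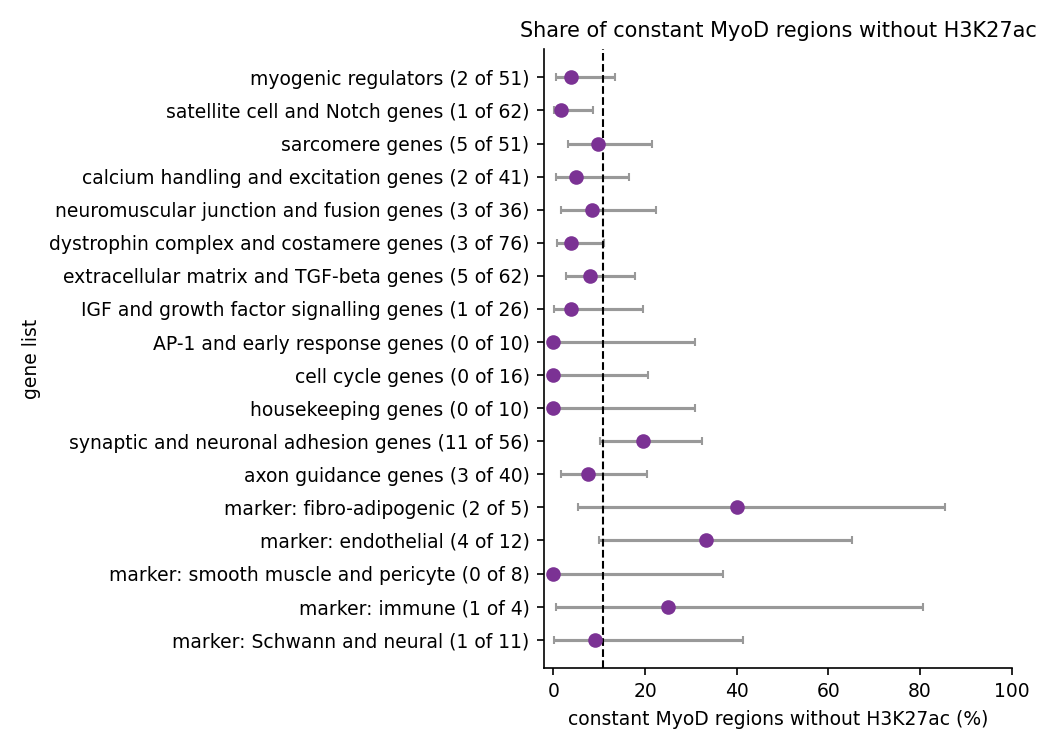
Share (%) of constant MyoD regions in the chosen gene positions that lacked H3K27ac, for each gene list, with the counts in brackets; bars are 95% exact binomial intervals and the dashed line is the share over all genes (10.7%). The highest points are marker lists with 5 and 12 regions and wide bars. Synaptic and neuronal adhesion genes lie at 19.6%, and most muscle lists lie below the line with bars that cross it.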

How the data were processed

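MyoD and H3K27ac ChIP-seq peak lists of 8 libraries (4 per antibody) were used; 8 input libraries were not analysed. Per the submitters' processing notes, MACS2 2.1.1 was used with Bowtie2 2.3.2, SAMtools 1.3, bedtools 2.26.0 and Picard 2.9.2 on the mm10 build. Their options were not stated. Each library has its own list. Deposited peaks carry the authors' fold enrichment, a linear ratio at the summit. They also carry −log10 p and −log10 q as deposited by the authors (q column at least 1.30), and the authors' whole-number score. Depth is unknown.

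Peaks were merged, classed and ranked in Python 3.11.15 with pandas 2.3.3, NumPy 2.4.6 and SciPy 1.17.1, tested on simulated data. Genes were the 21631 protein-coding genes on these chromosomes in the RefSeq table of GRCm38.p6. An overlapped gene body was assigned, otherwise the nearest. Group medians were compared by the exact permutation test over 6 assignments. Sequence windows and their build came from RefSeq; no genome was used, so the planned E-box search at summits was not run. Named genes were the 20 highest-ranked regions, the 10 genes with most regions, each list's leading genes, the 5 widest separations per direction and the regions beside each threshold; Filip1l, Dab1 and other members of the lists were named after their values were seen. The regions and gene lists were chosen with earlier results of these data known. Of the lists' gene symbols 1 did not match the table.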

Additional observations from a re-analysis of the deposited data

How the results depend on the processing

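Of 445 comparisons of a result with an alternative, 423 stayed within the limits set: 1.5 times for counts, the sign for the rank difference, and the 95% interval or the spread between libraries for other values. For gene lists with few regions these intervals are wide, and shares moved severalfold within them: −log10 q of at least 5 took satellite cell and Notch genes to 6.00% from 1.61% and housekeeping genes to 12.5% from 0%. Leaving out 1 library at a time, the number of constant MyoD regions without H3K27ac was 769 to 1098, with 1098 without the MyoD list of knockdown 2 and 945 without the H3K27ac list of knockdown 1. With a list left out the rule is easier to meet, so counts above 767 follow from the rule itself. The rank difference, knockdown minus control, was −1.96 to 3.42 over these fits, and its sign was reversed without MyoD knockdown 2 (−1.96). With 3 MyoD lists, 236 to 381 regions had the knockdown below the control ranks and 271 to 372 above, where fewer ranks must be in order. The number of regions also differed between these fits. Counts over all constant regions were not made for them, so no background share stands beside them. Over all these fits, those without an H3K27ac list included, the lows were 114 and 127. Ranking among all peaks of each list, which differ in length, gave a rank difference of −7.81 (exact permutation p = 0.333), with 192 regions below and 73 above. This difference and these counts were not computed for all constant regions, so they have no background. The same ranking gave −15.8 points for regions without H3K27ac minus acetylated regions in place of −21.1. With equal numbers of MyoD peaks per list 519 regions were left, 87 of them below and 84 above, also without a background share. Under that setting the share without H3K27ac was 0% for satellite cell and Notch, IGF and growth factor, and Schwann and neural genes. Counting regions within 1000 bp of H3K27ac as acetylated gave 0% for IGF and growth factor genes and a median distance of 16556 bp. A −log10 q of at least 5 gave 16618 bp, against 13292 bp. The share inside genes was 70.9% within 20 kb of a gene and 56.2% within 100 kb. The share with no H3K27ac at the gene ends, a result added after seeing the data, stayed between 48.0% and 52.2% under the alternatives run.

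With the replicate number as a block, the rank difference was 0.744 (exact sign-flip p = 1, smallest possible 0.5). Deviations of same-numbered libraries correlated at 0.154 over these regions. The ranks of same-numbered libraries of the groups correlated at 0.651 and 0.631, and those of the other pairs between groups at 0.592 and 0.570. The knockdown libraries correlated at 0.572 with each other. There were only 2 pairs, so the numbers are not taken as pairs, and whether they mark a shared batch was not tested. The E-box search at summits and its alternatives were not run.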

Other observations

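Gene families chosen after the regions had been seen gave these counts, with no test. Of constant MyoD regions at developmental transcription factor families (Gli, Olig, Nkx, Lmx, Lhx, Dlx, Tcf15, Tbx and Sox genes among them) 14 of 49 lacked H3K27ac (28.6%), at 11 genes. The strongest after Tcf15 lay 3.360 kb from Olig1, a bHLH gene of oligodendrocytes. It had 12.4 and 12.9 in the knockdown libraries and 15.5 and 15.6 in the controls, and both knockdown values were the lower ones. Lmx1b and Gli2 had 2 regions each. At potassium channel genes the count was 10 of 51 (19.6%), at voltage-gated calcium channel genes 4 of 14 (28.6%) and at cadherin genes 5 of 18 (27.8%). Over all genes it was 10.7%.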
